A study of Oryza sativa with 12 samples.

Results

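The change of each gene in the mutant oscct was set against its change in the mutant ossh1, as (oscct minus CK) minus (ossh1 minus WT) on the log2 scale. The comparison took the 11688 MSU locus IDs present in both deposited tables, of 55986 IDs in all, with rows of one ID summed in the oscct table, and 11654 of them passed the filter on low counts. RNA was taken from the rice abscission zone on the day of flowering, in 3 libraries for each of 4 groups (12 libraries), each library from a pool of 5 plants. CK and WT are labelled wild type, oscct and ossh1 mutant, and all were grown in the field in Beijing or Sanya, with no label tying a library to a place. Each mutant had a wild-type group of its own and no library was shared between the comparisons. The labels name no allele, so the mutation, the line it stands in and the growing place cannot be told apart. The title of the series links OsCCT22, OsSh1 and OsCAD2 to seed shattering and lignin, and the comparison asked which functions changed alike and which changed in opposite directions in the mutants.

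The abscission zone is the layer of small cells at the base of the rice spikelet through which the grain separates from the plant. Its formation depends on transcription factors that set it apart from the pedicel, and its breakage on how the walls of the zone and of the cells around it are built, lignin included. YABBY proteins such as OsSh1 are plant transcription factors, and CCT-domain proteins are best known from flowering time and clock control.

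Levels are CPM (counts scaled to a common library size) after TMM scaling within a table, so CK is not set against WT anywhere, and a CPM in the oscct table is a share of the listed genes only. From its values, the oscct table was taken to list only genes selected for a difference. Its sums of 12526152 to 13318397 counts per library were therefore taken as partial. The libraries of the ossh1 table held 27044341 to 32055561 counts, 72.9% to 73.7% of them in the shared IDs. The targeted gene could be checked in 1 mutant. YAB2 (LOC_Os03g44710), the YABBY gene known in the rice literature as OsSh1, was at 74.7, 75.7 and 80.3 CPM in the WT libraries and at 2.26, 1.3 and 1.15 CPM in ossh1. OsCCT22 was not analysed here.

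The changes of the mutants differed for most of the shared IDs. By the quasi-likelihood F test of edgeR, with p-values adjusted after Benjamini and Hochberg as everywhere below, 9366 of 11654 IDs (80.4%) differed between the mutants at an adjusted p under 0.05, 4770 (40.9%) with the more positive change in oscct and 4596 (39.4%) with the more positive change in ossh1. Past their own tests were 98.3% of IDs in oscct (48.9% higher, 49.4% lower) and 66.9% in ossh1 (34.1% higher, 32.8% lower). Neither the share in oscct nor the 80.4% with a difference can be read apart from the inferred selection of the oscct table. For 24.5% of IDs the difference passed and the ossh1 change did not. In 66.2% of IDs the libraries of mutant and control overlapped in neither comparison. The 7671 IDs (65.8%) past both fell into 4 direction classes. There were 1393 higher in both mutants (12% of the tested IDs) and 1524 lower in both (13.1%), together 25% of the tested IDs and 38.0% of those past both tests. Another 2246 (19.3%) were higher in oscct and lower in ossh1, and 2508 (21.5%) were lower in oscct and higher in ossh1, so that 40.8% of the tested IDs changed in opposite directions. Among the 6.8% of IDs changed at least 2-fold in both mutants, 216 (1.85%) rose in both and 127 (1.09%) fell in both, together 43.3% of them. Of the others 119 (1.02%) were up in oscct and down in ossh1, and 331 (2.84%) the reverse. Library totals in place of TMM moved the median difference of all IDs from 0.03 to 0.29 and the share of differences with the more positive change in oscct from 50.9% to 61.8%, and the share of ossh1 calls that were rises from 51.0% to 40.9%. Directions of small changes therefore rest on the scaling chosen.

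**Figure D1:**
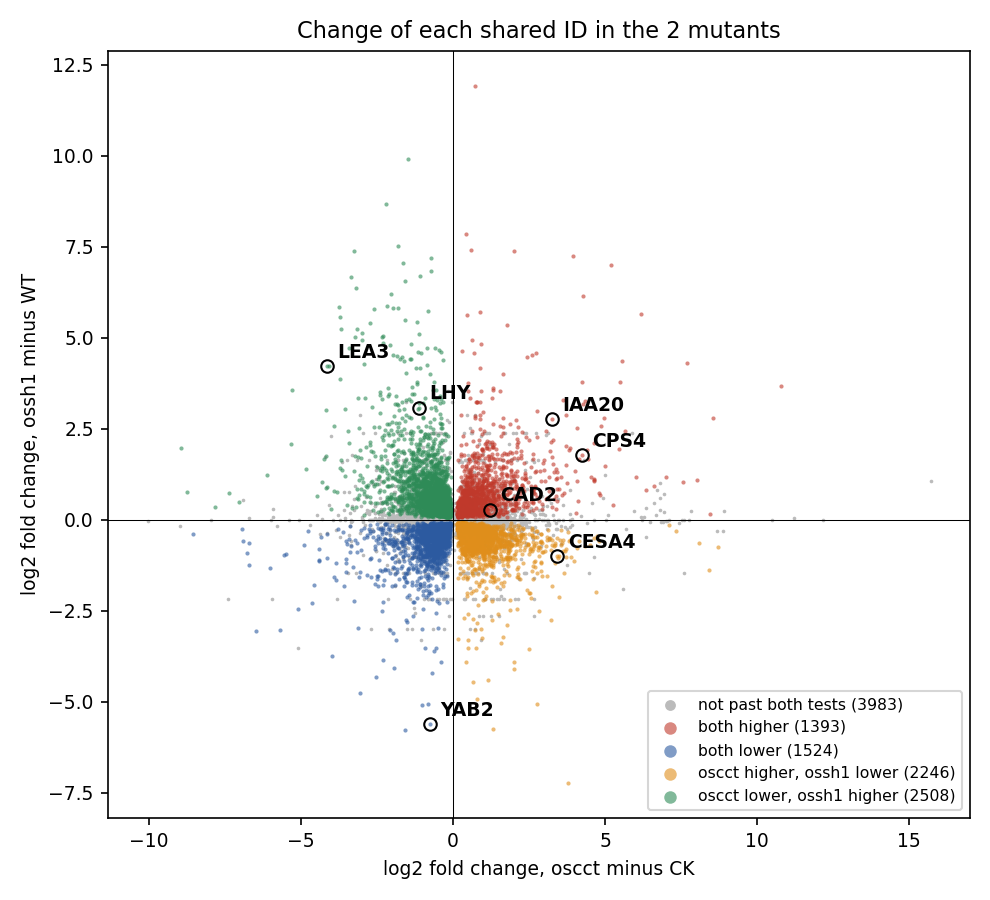
Each point is 1 of the 11654 tested IDs, with its log2 fold change in oscct on the horizontal axis and in ossh1 on the vertical axis, coloured by direction class; circles mark 7 genes described in the text. The 2508 IDs at upper left and the 2246 at lower right moved in opposite directions, against 1393 and 1524 that moved alike.

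Changing alike did not mean changing equally. Of the 1393 IDs higher in both mutants, 559 rose more in oscct and 230 rose more in ossh1 (together 6.77% of the tested IDs), and 604 had no called difference. Of the 1524 lower in both, 557 fell more in oscct and 313 fell more in ossh1 (together 7.47%), and 654 had no called difference. The classes were spread over the genome, with 34.6% (chromosome 6) to 40.4% (chromosome 10) of the IDs past both tests changed alike on each of the 12 chromosomes.

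Of the IDs named for large changes without overlap, LOC_Os09g36680 was higher in oscct and lower in ossh1. It was at 7.12, 7.12 and 8.25 CPM in CK and at 98.5, 108 and 103 CPM in oscct, but at 158, 153 and 153 CPM in WT and at 0.689, 1.46 and 0.934 CPM in ossh1. All oscct libraries lay above all CK libraries, and all ossh1 libraries below all WT libraries, and the changes differed by 11.01 on the log2 scale (SE 0.12, edgeR adjusted p = 1.66e-28). LOC_Os01g50910 moved the other way, falling from 26.3 ± 0.839 to 1.94 ± 0.342 CPM in oscct and rising from 5.51 ± 0.499 to 317 ± 15.9 CPM in ossh1 (mean ± SD, n = 3), a difference of -9.6 (SE 0.13, edgeR adjusted p = 5.09e-27). Neither ID carries a name here. IAA20 (LOC_Os06g07040), an Aux/IAA repressor of auxin response, was 1 of the 5 IDs named in this way for a rise in both mutants. It stood at 1.12, 0.9 and 1.27 CPM in CK against 10, 10.3 and 11.3 in oscct, and at 113, 117 and 119 CPM in WT against 819, 813 and 723 in ossh1. Its rises of 3.26 and 2.76 log2 units differed by 0.5 (SE 0.25, edgeR adjusted p = 0.0651), short of the threshold. The difference passed with library totals (0.76, edgeR adjusted p = 0.00448), with DESeq2 (0.53, adjusted p = 0.0385) and without ossh1 replicate 1 (0.53, edgeR adjusted p = 0.0451). LOC_Os08g17160 fell by 3.12 log2 units in oscct and by 2.98 in ossh1, with a difference of -0.14 (SE 0.22, edgeR adjusted p = 0.559).

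The functions of the genes are described over 42 lists of rice families whose names could be matched to the reference gene table. Of 448 such IDs, 278 were in both tables and all were tested. Of the 229 list IDs past both tests, 52.8% changed alike, beside 38.0% of all IDs past both tests. The lists were chosen with earlier results of these data known. Of the 278 list IDs, 240 (86.3%) differed between the mutants, beside 80.4% of all IDs. The 170 list IDs absent from the oscct table entered no comparison between the mutants.

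**Figure D2:**
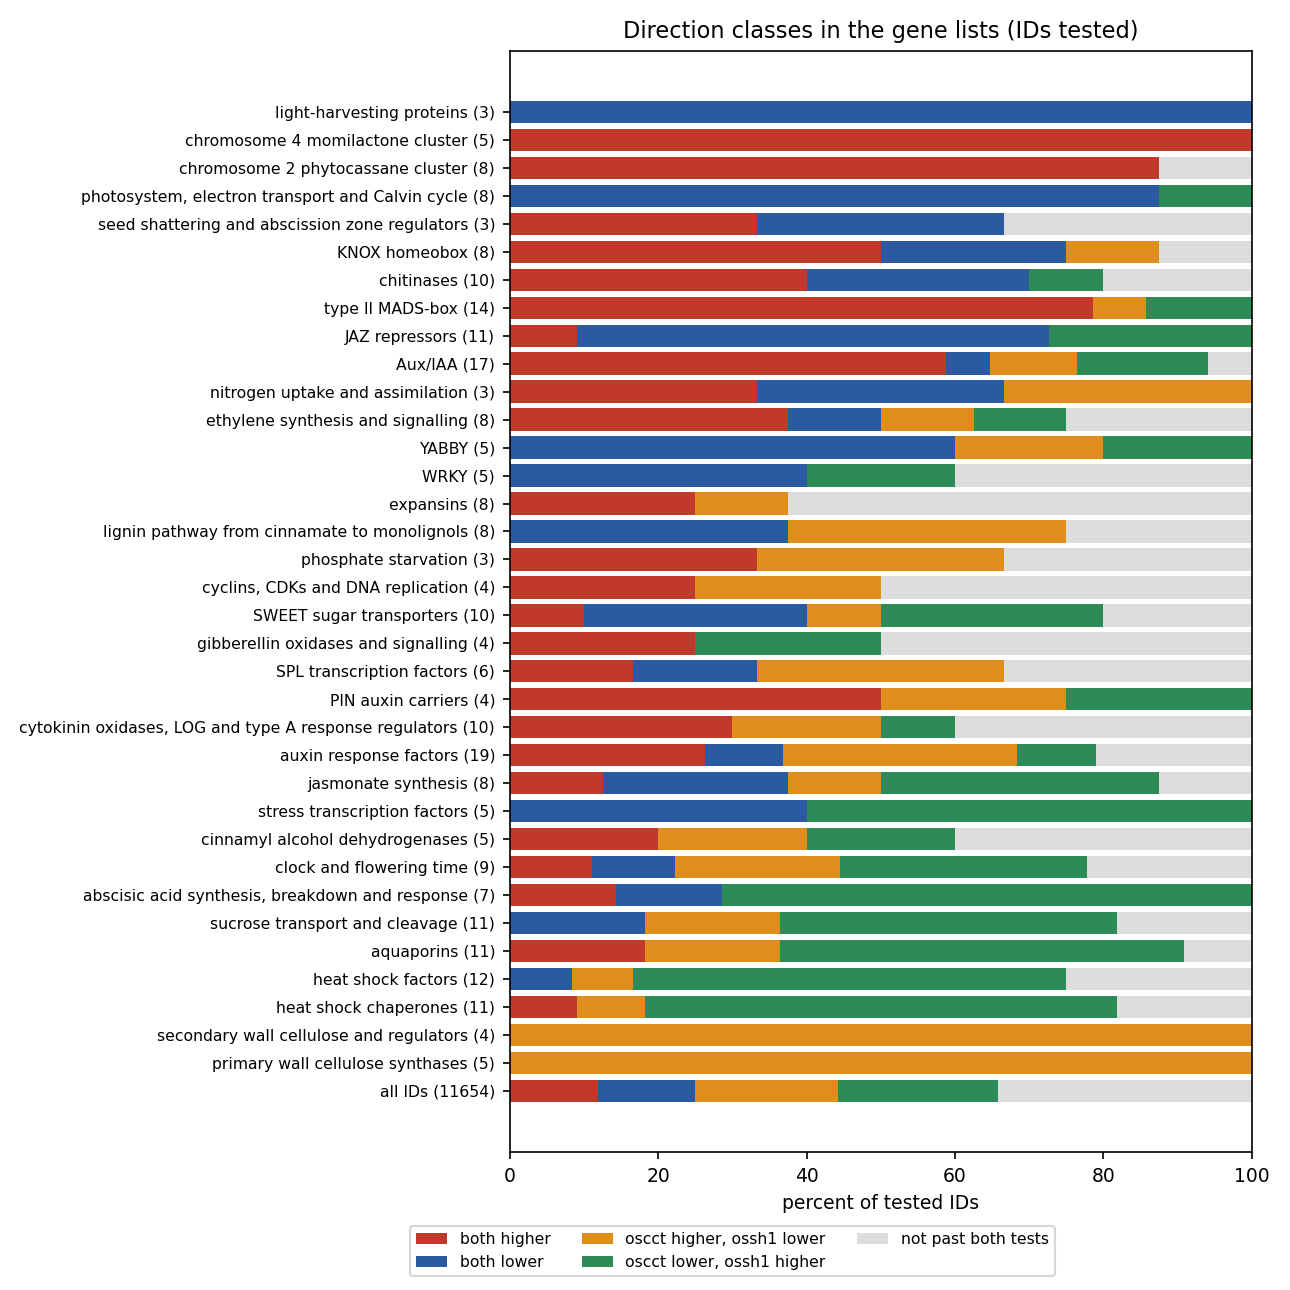
Each bar gives, for 1 of the 35 lists with at least 3 tested IDs (number in brackets) or for all 11654 IDs, the percent of tested IDs in each direction class. Cellulose lists are filled by the class higher in oscct and lower in ossh1, the heat shock lists mostly by the reverse, and the diterpenoid, MADS-box and photosynthesis lists by changes in one direction.

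Of 8 listed regulators of shattering and the abscission zone, 3 had a matched name and were tested. SH4, QSH1, SH5, CPL1 and SNB had no matched name and were not examined. Among the tested regulators, OsSh1 itself was lower in oscct too. YAB2 stood at 107, 113 and 112 CPM in CK and at 63.9, 65.5 and 65.6 in oscct, with no overlap. It therefore fell in both mutants, by 0.77 log2 units in oscct and by 5.62 in ossh1 (difference 4.85, SE 0.12, edgeR adjusted p = 1.61e-21). SHAT1 (LOC_Os04g55560), an AP2 factor needed for the abscission zone, rose in oscct from 45.8 ± 0.293 to 73 ± 3.2 CPM (SD, n = 3). In ossh1 it was at 46.2, 47.3 and 42.6 CPM against 43.3, 42.8 and 44.4 in WT, which overlap, and the changes differed by 0.61 (SE 0.07, edgeR adjusted p = 4.6e-08). OSH15 (LOC_Os07g03770), a KNOX homeobox gene, rose in both, by 0.47 and 0.3 log2 units. In the YABBY list 3 of 5 tested IDs fell in both mutants, YAB2 among them, against 13.1% of all IDs. YAB5 fell by 3.58 and 1.83 log2 units, while DL (drooping leaf, a gene of carpel and midrib development) rose by 1.47 in oscct and fell by 1.62 in ossh1.

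Of the cinnamyl alcohol dehydrogenases, which make the alcohols that are polymerised to lignin, CAD2 (LOC_Os02g09490, the OsCAD2 of the title) was higher in both mutants. It was at 65.5, 66.7 and 65.2 CPM in CK against 150, 159 and 146 in oscct, and at 77.7, 76.4 and 80.4 in WT against 99.9, 92.9 and 91.8 in ossh1. The libraries did not overlap in either comparison, and the rise of 1.21 log2 units in oscct exceeded that of 0.28 in ossh1 by 0.93 (SE 0.06, edgeR adjusted p = 1.02e-12). The other tested members did not follow one pattern. CAD8C rose by 0.92 in oscct and fell by 0.74 in ossh1. CAD1 fell by 0.49 and rose by 0.31, though the nearest CK and oscct libraries were at 13.1 and 13 CPM. CAD8A and CAD8B had log2 fold changes of 1.66 and 1.61 in oscct that passed the test and of 0.95 and 0.31 in ossh1 that did not. CAD8A to CAD8C are neighbouring genes, and the sources used here do not say how reads were split between such copies.

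Of the lignin pathway before them, 27 IDs were listed, 12 had a matched name and 8 were tested. The 8 were 4CL, HCT and methyltransferase genes, so the other steps were not covered. Of these 8, 3 were up in oscct but down in ossh1, beside 19.3% of all IDs, and 3 were down in both, beside 13.1%. With library totals 2 were down in both. COMT1 (LOC_Os08g06100), a methyltransferase of lignin precursors, rose from 57.9 ± 1.26 to 208 ± 0.558 CPM in oscct and fell from 217 ± 2.72 to 166 ± 6.11 in ossh1 (SD, n = 3), a difference of 2.23 (SE 0.05, edgeR adjusted p = 2.03e-22). 4CL3, a ligase that activates the precursors with coenzyme A, rose by 1.53 and fell by 0.53 log2 units. 4CL4 and ROMT-15 fell in both, by 0.27 and 0.21 in oscct and by 0.16 and 0.24 in ossh1, with no called difference (edgeR adjusted p = 0.0824 and 0.581). With library totals the differences were called, at 0.15 for 4CL4 and 0.29 for ROMT-15 (edgeR adjusted p = 0.0235 and 5.77e-06), and with the oscct table centred 4CL4 was called at -0.16 (edgeR adjusted p = 0.0131).

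The tested genes of cellulose synthesis changed in opposite directions throughout. All 9 tested IDs of the primary and secondary wall lists rose in oscct and fell in ossh1, a class that held 19.3% of all IDs. Their log2 fold changes ran from 0.49 to 4.35 in oscct and from -0.99 to -0.19 in ossh1. CESA4 (LOC_Os01g54620), a synthase subunit of secondary walls, was at 2.56, 3.35 and 3.57 CPM in CK and at 35.4, 31.6 and 35 in oscct, yet at 408, 418 and 414 CPM in WT and at 206, 205 and 213 in ossh1. No library of one group overlapped with its control, and the difference was 4.42 (SE 0.1, edgeR adjusted p = 2.17e-22). CESA9 behaved in the same way, with a rise of 4.09 and a fall of 0.77. CESA7 and BC1, which lay outside the rule for named genes and are given after their values were seen, rose by 4.35 and 3.05 and had changes of -0.72 and -0.71 in ossh1. The primary wall subunits moved less: CESA8 rose by 1.38 and fell by 0.34, and CESA2 rose by 0.49 and fell by 0.59. Under each of the 4 other scalings all 9 stayed in this class.

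Sucrose synthase SUS1 (LOC_Os03g28330), an enzyme that cleaves sucrose, moved with them. It was at 15.8, 16.4 and 15.9 CPM in CK and at 114, 106 and 105 in oscct, and at 246, 249 and 245 in WT and at 90.7, 91.4 and 84.6 in ossh1, which is a difference of 4.23 (SE 0.07, edgeR adjusted p = 1.76e-25). Its list was mixed, with 5 of 11 tested IDs lower in oscct and higher in ossh1, 2 the reverse (SUS1 and SUS3) and 2 lower in both. The SWEET sugar exporters were likewise divided, 3 of 10 lower in oscct and higher in ossh1, 1 the reverse, 3 lower in both and 1 higher in both. Of all IDs, these classes held 21.5%, 19.3%, 13.1% and 12%. SWEET15 fell from 41.1 ± 4.4 to 1.02 ± 0.185 CPM in oscct and rose from 5.3 ± 0.808 to 22.7 ± 2.32 CPM in ossh1 (SD, n = 3).

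**Figure D3:**
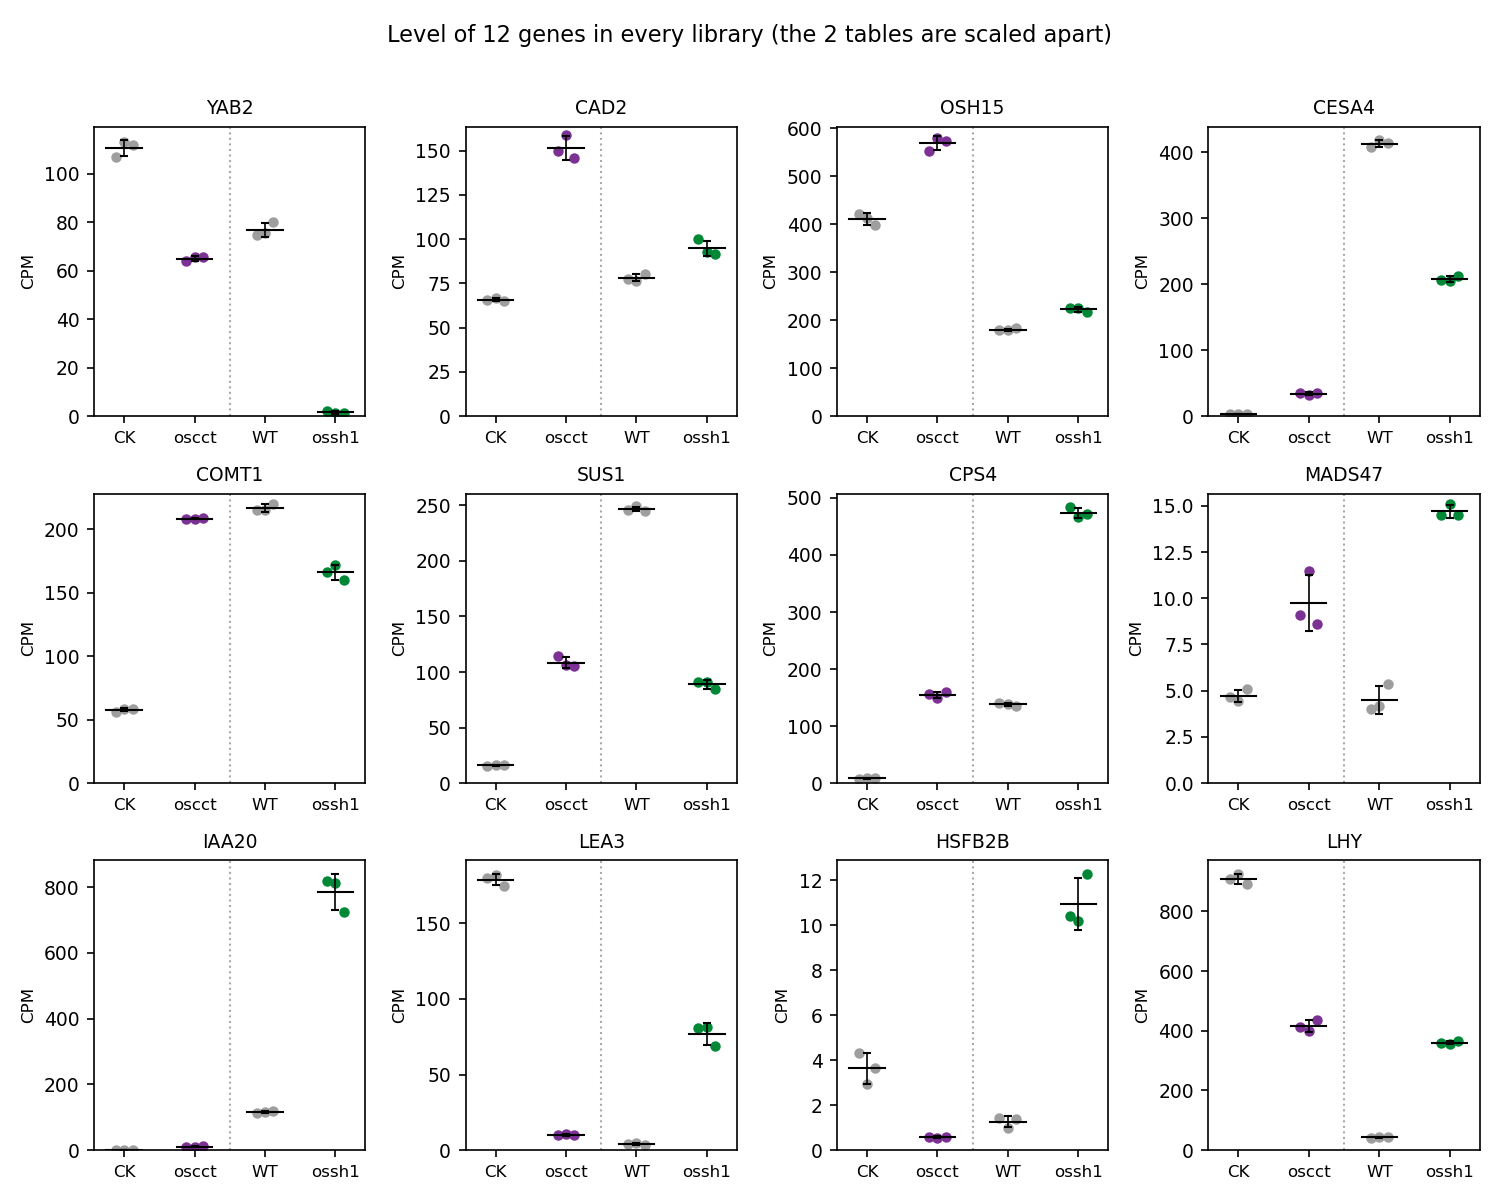
Each panel shows CPM of 1 gene in the 12 libraries (dots), with the mean (line) and SD of each group; the dotted line parts the oscct table (left) from the ossh1 table (right), which are scaled apart. YAB2, CAD2, OSH15, CPS4, MADS47 and IAA20 moved in one direction in both mutants, and CESA4, COMT1, SUS1, LEA3, HSFB2B and LHY in opposite directions.

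The class lower in oscct and higher in ossh1 was the most frequent one in the lists of heat shock genes, abscisic acid genes and aquaporins. Of the 23 tested heat shock factors and chaperones, 14 were in this class, which held 21.5% of all IDs, and 2 in the opposite one. Their median log2 fold change was -0.72 in oscct and 0.78 in ossh1, beside -0.08 and 0 for all IDs. HSFB2B (LOC_Os08g43334), a class B heat shock factor, was at 4.32, 2.94 and 3.65 CPM in CK and at 0.603, 0.524 and 0.589 in oscct, and at 1.44, 0.987 and 1.39 CPM in WT and at 10.4, 10.2 and 12.3 in ossh1. Both comparisons were free of overlap, and the difference was -5.76 (SE 0.32, edgeR adjusted p = 1.63e-14). Among the chaperones, HSP81-1, an HSP90 protein, fell by 1.12 and rose by 1.23 log2 units, and HSP24.1 fell by 2.2 and rose by 1.37. HSP22.3 rose in both, by 0.6 and 1.07.

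LEA3 (LOC_Os05g46480), a late embryogenesis abundant protein induced by abscisic acid and water loss, had nearly mirrored changes. It was at 180, 182 and 175 CPM in CK against 9.72, 10.8 and 9.87 in oscct, and at 4.28, 4.71 and 3.35 in WT against 80.7, 81.5 and 68.7 in ossh1. The fall of 4.15 log2 units and the rise of 4.23 gave a difference of -8.37 (SE 0.12, edgeR adjusted p = 9.71e-27). In its list of abscisic acid genes 5 of 7 tested IDs were lower in oscct and higher in ossh1, beside 21.5% of all IDs. The exceptions were ABA8OX1, an enzyme that breaks the hormone down, which fell by 2.68 and 1.06, and ABA8OX3, which rose by 0.54 and 0.49. The stress factor NAC6 fell from 1780 ± 14 to 858 ± 13.5 CPM in oscct and rose from 320 ± 3.44 to 657 ± 13.7 in ossh1 (SD, n = 3). DREB1A and DREB1B, factors of cold response, fell in both mutants instead, by 4.4 and 5.49 in oscct and by 1.14 and 0.94 in ossh1. DREB1C did not follow them and was lower in oscct and higher in ossh1. Of the 5 tested stress factors 3 were in that class (DREB1C, DREB2A and NAC6), beside 21.5% of all IDs. The 2 lower in both stand beside 13.1% of all IDs.

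Of 11 tested aquaporins, 6 fell in oscct and rose in ossh1 and 2 did the reverse, beside 21.5% and 19.3% of all IDs. TIP1-2, a channel of the vacuole membrane, fell from 19.2 ± 2.41 to 7.42 ± 1.07 CPM in oscct and rose from 9.88 ± 0.473 to 95.5 ± 7.82 in ossh1 (SD, n = 3), whereas PIP2-7 rose by 2.1 and fell by 2.45 log2 units. As a list of another tissue, the endosperm storage markers summed to 554 to 567 CPM in WT and 959 to 993 in ossh1 over 3 of 3 IDs. Of these, 2 were called higher in ossh1 when its full table was fitted alone. Only GLUA1 was in the oscct table, at 22.5 to 23.7 CPM in CK and 19 to 20.6 in oscct. Its log2 fold change of -0.22 in oscct passed the test, but with library totals it was -0.06 and did not. None of the 3 was at 0, and their part in the changes of the heat shock, abscisic acid and aquaporin lists was not tested. The 8 tapetum and anther markers summed to 18.4 to 19.2 CPM in WT and 13.9 to 15.1 in ossh1, with 1 at 0, and the 1 pollen marker matched here reached at most 0.0767 CPM. None of these 9 was in the oscct table. In bulk samples, fewer cells of a type and less RNA per cell cannot be told apart.

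**Figure D4:**
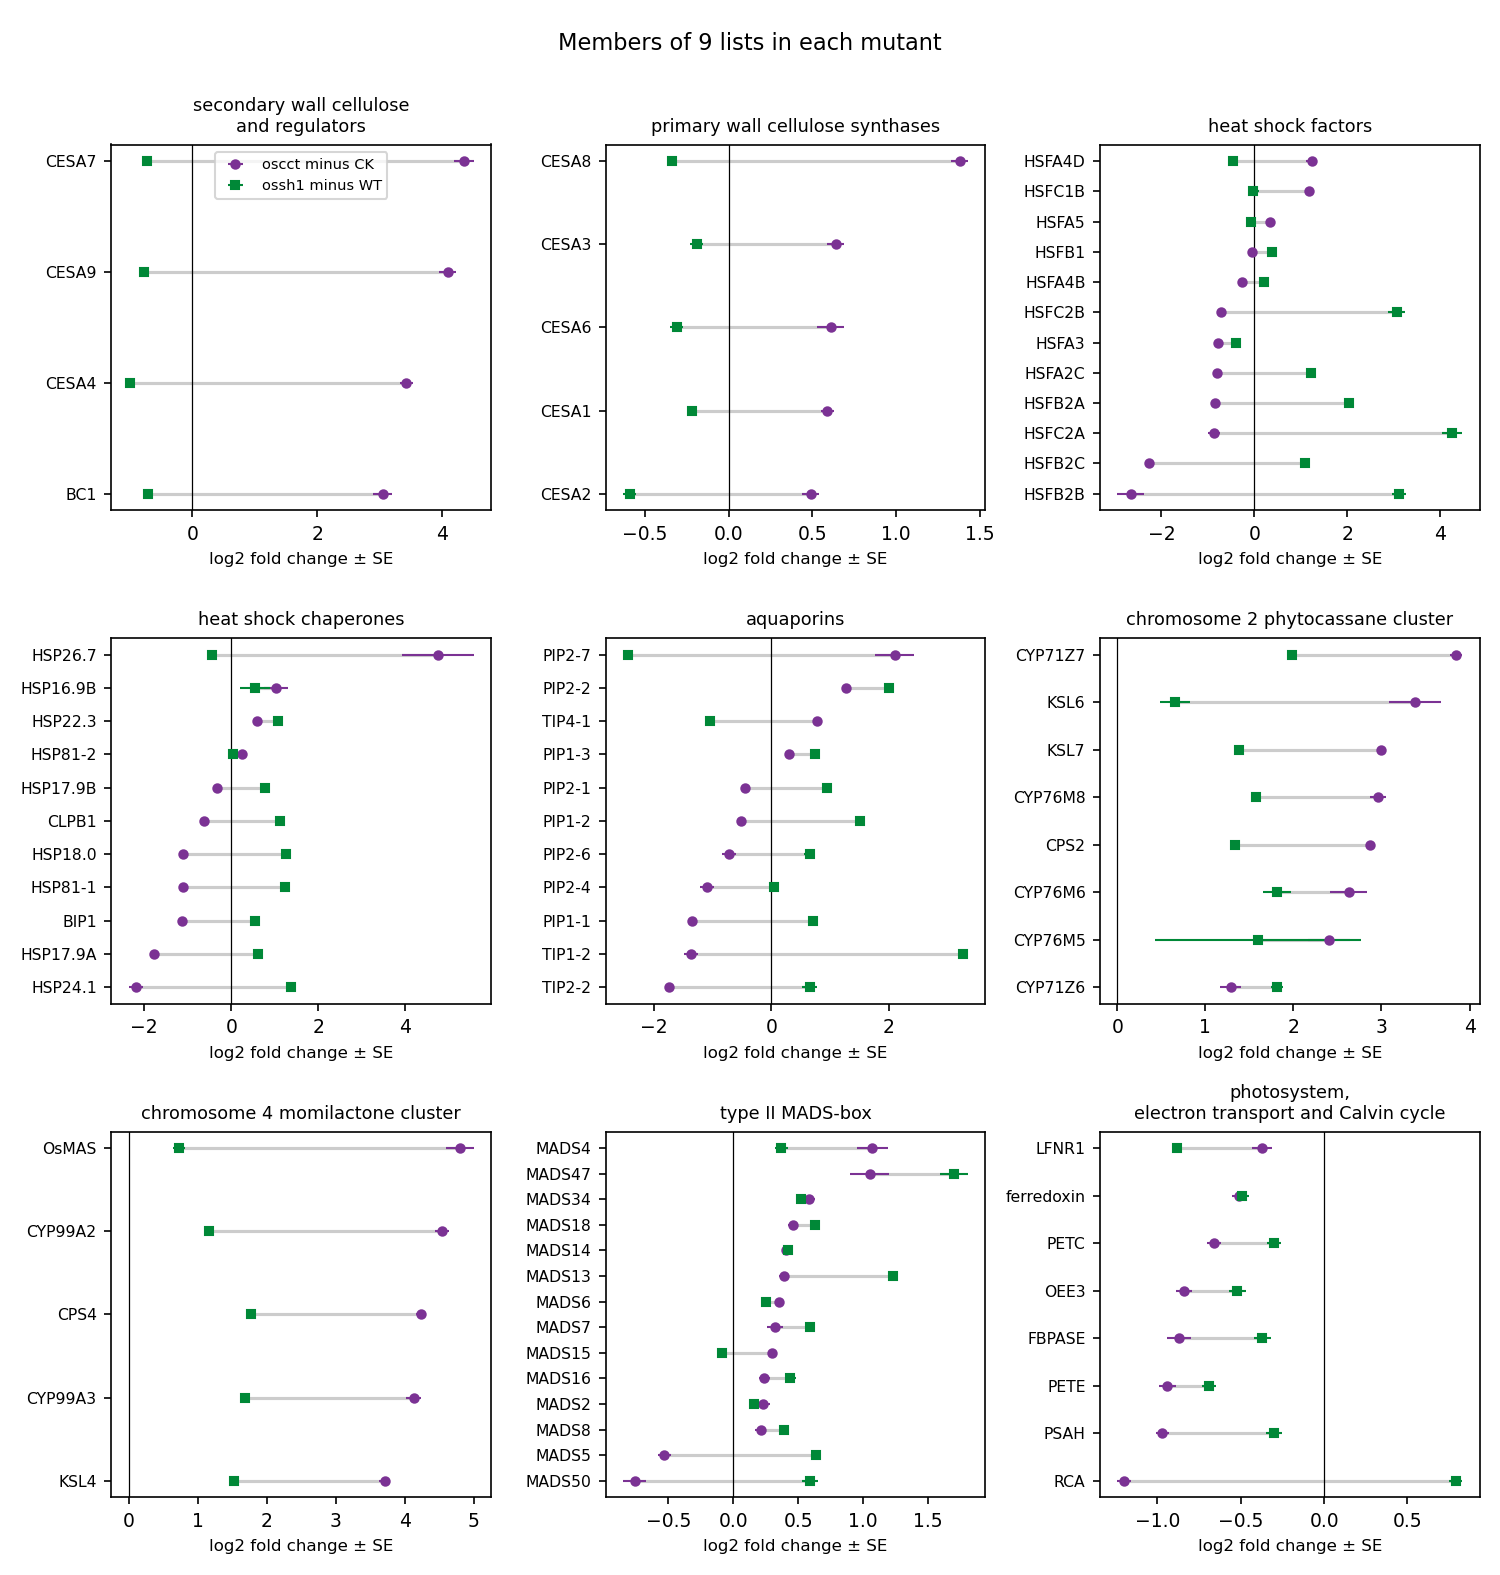
Each row is 1 tested gene of the list named above the panel, with its log2 fold change ± SE in oscct (circles) and in ossh1 (squares) on an axis scaled to the panel. In the cellulose panels the symbols lie on opposite sides of 0 for all 9 genes, in both diterpenoid panels all lie above 0, and in the photosystem panel all lie below 0 except RCA in ossh1.

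The diterpenoid clusters rose in both mutants. These neighbouring genes on chromosomes 2 and 4 make phytocassanes and momilactones, antimicrobial compounds of rice. Of 13 tested IDs, 12 were higher in both, a class that held 12% of all IDs, with rises of 1.29 to 4.8 log2 units in oscct and 0.66 to 1.98 in ossh1. CPS4 (LOC_Os04g09900), the cyclase at the start of momilactone synthesis, was at 8.08, 8.42 and 8.25 CPM in CK against 156, 149 and 160 in oscct, and at 140, 139 and 135 in WT against 484, 467 and 472 in ossh1. The rise of 4.23 in oscct exceeded that of 1.78 in ossh1 by 2.45 (SE 0.07, edgeR adjusted p = 4.78e-20). Over the 13 genes the difference was called for 11 with the larger rise in oscct and for 1 with the larger rise in ossh1. Of all IDs, 40.9% were called with the more positive change in oscct and 39.4% with the more positive change in ossh1. The exception among the calls of direction, CYP76M5, was near 0 in the ossh1 table, with means of 0.0208 and 0.0765 CPM in WT and ossh1.

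Type II MADS-box genes, which include those that specify floral organs, were mostly higher in both mutants by small amounts. Of 14 tested, 11 were higher in both mutants, beside 12% of all IDs. Their rises were 0.21 to 1.07 log2 units in oscct and 0.16 to 1.7 in ossh1. The difference was called for 8 with the more positive change in ossh1, beside 39.4% of all IDs. For 3 it was called with the more positive change in oscct, beside 40.9%. With library totals these counts were 3 and 6, so which mutant rose more rests on the scaling. MADS47 rose from 4.71 ± 0.337 to 9.76 ± 1.56 CPM in oscct and from 4.51 ± 0.746 to 14.7 ± 0.345 in ossh1 (SD, n = 3). MADS5 and MADS50 did not follow, falling by 0.53 and 0.76 in oscct and rising by 0.64 and 0.59 in ossh1. With library totals the class higher in both held 10.

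Genes of auxin response were divided. Of 17 tested Aux/IAA genes 10 were higher in both mutants, beside 12% of all IDs, with medians over the list of 1.01 in oscct and 0.52 in ossh1 beside -0.08 and 0 over all IDs. IAA1 was at 73.7, 71.8 and 69.8 CPM in CK and at 200, 185 and 181 in oscct, and at 6.34, 6.68 and 8.29 CPM in WT and at 21.7, 21.2 and 18.7 in ossh1, and its rises of 1.39 and 1.53 had a difference of -0.13 that was not called (edgeR adjusted p = 0.242). Without WT replicate 3 it was -0.26 and was called (edgeR adjusted p = 0.0254). IAA6 and IAA14 fell by 1.3 and 0.74 in oscct and rose by 1.63 and 1.34 in ossh1. Among the auxin response factors there were 5 of 19 higher in both, 2 lower in both, 6 higher in oscct and lower in ossh1 and 2 the reverse. The shares of these classes over all IDs were 12%, 13.1%, 19.3% and 21.5%. With library totals the classes held 5, 0, 9 and 1 of the 19 in the same order. Of the PIN auxin carriers, PIN1B and PIN5B rose in both, PIN1A rose by 1.67 and fell by 0.57, and PIN10A fell by 1.24 and rose by 1.01.

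Most of the tested photosynthesis genes were lower in both mutants. The tested IDs were 3 of 15 listed for light harvesting and 8 of 28 listed for the other steps. Of 11 tested IDs for light harvesting, the photosystems, electron transport and the Calvin cycle, 10 were lower in both, beside 13.1% of all IDs. Over the 11 IDs, RCA included, the difference was called in 8 with the more negative change in oscct, beside 39.4% of all IDs. In 2 it was called with the more negative change in ossh1, beside 40.9%. CAB2R, a chlorophyll-binding protein, was at 933, 909 and 923 CPM in CK against 440, 469 and 463 in oscct, and at 428, 447 and 440 in WT against 343, 343 and 318 in ossh1. The exception was RCA, the activase of Rubisco, which fell by 1.2 in oscct and rose by 0.79 in ossh1. With library totals these counts were 5 and 3, and PETE's difference was 0.01 in place of -0.25. Plastid glutamine synthetase GS2, of the nitrogen list, fell as well, by 2.02 and 1.04, while GS1-1 of the same list rose by 0.48 and 0.42.

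JAZ proteins repress jasmonate response, and their genes were mostly lower in both mutants. Of 11 tested, 7 were lower in both, beside 13.1% of all IDs, and 3 were lower in oscct but higher in ossh1, beside 21.5%. JAZ8 stood at 373, 339 and 352 CPM in CK and at 142, 170 and 154 in oscct, and at 362, 376 and 365 in WT and at 229, 208 and 208 in ossh1, falls of 1.19 and 0.77 log2 units. JAZ11 fell by 1.85 in oscct and rose by 0.27 in ossh1, a difference of -2.12 (SE 0.05, edgeR adjusted p = 9.57e-23). All 10 called differences in the list had the more negative change in oscct, beside 39.4% of all IDs. With library totals 7 were called in that direction and 1 in the other, and the class lower in oscct and higher in ossh1 held 1 ID in place of 3.

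The 9 tested genes of the clock and flowering time were mixed, with 3 lower in oscct and higher in ossh1, 2 the reverse, 1 higher in both and 1 lower in both. Over all IDs these classes held 21.5%, 19.3%, 12% and 13.1%. LHY (LOC_Os08g06110), a morning-phased MYB factor of the clock, was at 910, 926 and 891 CPM in CK and at 412, 400 and 437 in oscct, but at 41.4, 43.5 and 43.1 CPM in WT and at 359, 356 and 367 in ossh1. The difference of -4.21 (SE 0.05) had an edgeR adjusted p of 2.1e-28. PCL1, an evening component, ran opposite to it, rising by 1.77 in oscct and falling by 2.88 in ossh1. GI fell in both, by 0.27 and 0.55, and the florigen gene HD3A rose in both, by 1.08 and 1.51. The labels give no hour of sampling, so the time of day and the groups cannot be told apart.

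Other lists held smaller or mixed changes, to be read beside 12% of all IDs higher in both mutants and 13.1% lower in both. Of 8 tested KNOX genes 4 rose and 2 fell in both, OSH1 rising by 0.8 and 0.41. Among 8 genes of ethylene synthesis and signalling 3 rose in both, and ACS1, an enzyme of ethylene synthesis, fell in both by 3.1 and 1.56, while ACO1, which acts after it, fell by 1.35 and rose by 2.23. Of 10 chitinases 4 rose and 3 fell in both. The expansins, which loosen walls, had 3 ossh1 calls among 8 tested IDs, beside 66.9% of all IDs called: EXPA2 and EXPB3 rose in both and EXPA7 rose by 1.81 and fell by 1.28. Of 10 genes of cytokinin breakdown, activation and response, 8 differed with the more positive change in oscct, beside 40.9% of all IDs, CKX4 rising by 1.36 and 0.9 and CKX11 falling by 0.55 and rising by 1.1. The ammonium transporter AMT1-3 rose by 2.57 and fell by 2.15, and the replication clamp PCNA rose by 0.67 and fell by 0.76. In PCNA's list of 4 tested IDs, KRP1 rose in both, by 0.43 and 0.53, and CDKB1-1 and CYCD4-1 were not past both tests.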

How the data were processed

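The authors deposited 1 table per comparison. Per the file headers and its values, the 55986 IDs of the ossh1 table carry read counts in whole numbers. The oscct table holds estimated counts, deposited per the file headers as read counts, for 11688 IDs, of which 1215 stand in several rows. Of the values in those rows 12.6% were whole within 0.05, against 59.1% of the sums, so rows of one ID were summed and rounded. Per the submitters' processing notes the tools were DESeq2, HISAT2 and RSEM 1.3.1 on the genome build IRGSP-1.0, without their roles. Strand use and the step that selected the oscct rows are not given in the sources used here. Calls in oscct were therefore taken as made on selected genes, and its depth is unknown.

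One edgeR 4.0.16 fit (R 4.3.3) took all 12 libraries: filterByExpr, TMM within each table (the ossh1 factors from its full table), glmQLFit, glmQLFTest and Benjamini-Hochberg adjustment over 11654 IDs, with a threshold of 0.05. SE is the absolute log2 fold change over the square root of F. The common biological coefficient of variation was 3.51%. The labels call the pools biological replicates. Their counts varied beyond sampling noise (chi-square per degree of freedom 1.71 to 5.62). The p-values measure a spread between pools that was estimated for each ID over all 12 libraries together. The chi-square values were 1.71 to 2.91 between oscct pools and 3.32 to 5.62 between ossh1 pools. A p-value thus does not measure the spread of 1 comparison alone. Fits were tested on simulated data. Where all libraries of a group had no count, the bound on the fold used 3 counts over the group, which covers counting error only.

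The IDs and gene lists were chosen with earlier results of these data known. Lists pair locus IDs with names from general knowledge of rice families. A name was used only where the RefSeq table of another assembly (ASM3414082v1) holds it on the same chromosome, within 1.5 Mb of the place implied by neighbouring IDs: 448 of 703 list IDs. The place scale was built from the same pairs, some names were matched through synonyms picked after looking at the place, and the 255 others were not used. The table does not carry the name OsSh1 for YAB2, which is background knowledge.

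Named genes were, in each direction class, the 5 IDs with the largest smaller change, no overlap and at least 1 CPM on average in each table; in each list of at least 3 tested IDs, the 2 alike and 2 opposite members with the largest smaller change; and all shattering and cinnamyl alcohol dehydrogenase IDs. Other names were added after their values were seen. Alternatives were RLE (also with DESeq2 1.42.0), library totals, TMM over shared IDs, a centred oscct table, other filters, thresholds and row choices, limma-voom (limma 3.58.1), separate fits, the replicate block and each library left out. Figures used matplotlib 3.10.9.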

Additional observations from a re-analysis of the deposited data

Results flagged for a closer look

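The change itself differed between the mutants for 9366 of 11654 IDs (edgeR, adjusted p under 0.05). That count cannot be read apart from the inferred selection of the oscct table. The named IDs among the strongest of each direction class include the following. Differences are on the log2 scale as oscct minus ossh1, and no explanation was tested.

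Among IDs higher in both mutants, LOC_Os03g18779 differed by -1.8, with means of 3.62 and 133 CPM in CK and oscct and of 0.188 and 24.6 CPM in WT and ossh1. LOC_Os07g06834 differed by -3.28, with 0.133 and 2.17 CPM against 0.0409 and 7.12 CPM in the same order. LOC_Os04g32610 was at 0 in all CK libraries and at least 130-fold higher in oscct, against 3 counts over the CK group, and rose from 0.208 to 2.74 CPM in ossh1; its fitted difference of 7.11 depends on the prior count and is no bound. Among IDs lower in both, the difference was -2.64 for LOC_Os01g52240, -1.05 for LOC_Os01g41420 and 1.14 for LOC_Os05g50700.

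Among IDs higher in oscct and lower in ossh1, the difference was 11.01 for LOC_Os09g36680, 7.83 for LOC_Os04g27190, 5.97 for LOC_Os04g55380, 6.05 for LOC_Os02g45225 and 5.32 for LOC_Os09g36590. LOC_Os04g27190 was at 0.266 and 1.87 CPM in CK and oscct and at 165 and 4.97 CPM in WT and ossh1. In the reverse class it was -8.37 for LOC_Os05g46480 (LEA3), -9.6 for LOC_Os01g50910, -9.29 for LOC_Os10g36180, -8.91 for LOC_Os11g43790 and -8.86 for LOC_Os03g07180. LOC_Os10g36180 was at 33.4, 36.1 and 35.4 CPM in CK and at 2.19, 3.07 and 2.73 CPM in oscct. In WT it was at 0.187, 0.573 and 0.362 CPM and in ossh1 at 19.3, 20.1 and 14.8 CPM.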

How the results depend on the processing

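Counts of called IDs and of direction classes stayed within 1.5 times the values given under the alternatives tried, except for these. With library totals the class lower in oscct and higher in ossh1 held 1656 IDs in place of 2508. Requiring at least 2-fold gave 4095 IDs for the difference, 3239 for oscct, 1412 for ossh1, and 216, 127, 119 and 331 for the classes in the order used above. Library totals also turned the sign of the difference of LOC_Os04g32850 (0.23), 4CL4 (0.15), PETE (0.01), SUT1 (0.07) and KRP1 (0.16), as they raise all differences. Over 133 named IDs and their alternatives, 2979 of 3021 differences kept direction and side of the threshold, 26 came to pass it and 11 ceased to, LOC_Os05g50700 among them without oscct replicate 1 (0.94, edgeR adjusted p = 0.0577). Leaving out a library gave 9207 to 9274 called differences. Replicate numbers did not pair libraries (correlations of deviations from -0.043 to 0.025), and with the replicate block 9319 differences were called. The most abundant row in place of the sum gave 9316, and GI's difference was then 0.02 in place of 0.28. Fitting each table alone gave 10625 calls in oscct and 7359 in ossh1 and has no test of the difference. The selection of the oscct table and its unknown depth limit the calls there, and genes not listed in it could not be compared.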
